A study of Mus musculus with 40 samples.

Results

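The transcripts of the CSF1 receptor axis and of related myeloid growth factor receptors were followed across choroid and retina: *Csf1r*, the receptor that PLX5622 inhibits, its ligands *Csf1* and *Il34*, and the GM-CSF receptor chains *Csf2ra* and *Csf2rb*. These 5 genes were chosen by symbol, all 5 were matched, and they belong to 54307 genes listed in 40 libraries. The libraries came from 20 laser-treated mice, 20 choroids and 20 retinae, with 5 mice per group: control – PLX, *Tgfbr2ΔEC* – PLX, control + PLX and *Tgfbr2ΔEC* + PLX. All mice were C57BL/6J of both sexes, carried floxed *Tgfbr2* alleles (*Tgfbr2* fl/fl), and received tamoxifen eye drops for 5 days at an age of 6 to 7 weeks. The *Tgfbr2ΔEC* mice also carried Cdh5-CreERT2, a tamoxifen-inducible Cre recombinase driven by an endothelial promoter, whereas controls were littermates without Cre. PLX5622 was fed from the first tamoxifen dose to the end of the experiment, 6 laser burns were set per eye, and tissue was taken 3 days later from the central, lesioned choroid and from the retina. Because an endothelial promoter drives Cre and whole tissue was sequenced, *Tgfbr2* transcripts of all other cells remain in the libraries.

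CSF1R is a receptor tyrosine kinase on which macrophages, monocytes and microglia depend for survival and proliferation, and inhibitors such as PLX5622 deplete mononuclear phagocytes (MP), the collective name for these cells. Its ligands are CSF1, made by endothelial, stromal and other cells, and IL-34, made mainly by neurons and keratinocytes and known to maintain part of the retinal microglia. CSF2RA is the chain that binds GM-CSF, and CSF2RB is the common signaling chain that it shares with the receptors for IL-3 and IL-5.

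The promoters of the ligand *Csf1* and of the receptor chain *Csf2ra*, 2 of the 5 members, are shown. Those of *Csf1r*, *Il34* and *Csf2rb* were not analysed here. With the PLX diet *Csf2ra* fell in choroid and *Csf1* did not pass the test there. They run from 250 bases before to 50 bases after the RefSeq start site on GRCm38.p6, for *Csf1* at chr3:107760420-107760719 and for *Csf2ra* at chr19:61228369-61228668, both on the minus strand. Capitals mark GAGGAAG, the letters around the core to which the myeloid factor PU.1 (*Spi1*) and other ETS factors bind.
Csf1: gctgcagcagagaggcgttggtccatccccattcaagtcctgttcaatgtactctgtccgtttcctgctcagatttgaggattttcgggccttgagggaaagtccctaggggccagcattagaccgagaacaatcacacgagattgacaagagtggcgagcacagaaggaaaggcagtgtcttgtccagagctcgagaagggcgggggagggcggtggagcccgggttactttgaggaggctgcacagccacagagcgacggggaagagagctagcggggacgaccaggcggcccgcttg
Csf2ra: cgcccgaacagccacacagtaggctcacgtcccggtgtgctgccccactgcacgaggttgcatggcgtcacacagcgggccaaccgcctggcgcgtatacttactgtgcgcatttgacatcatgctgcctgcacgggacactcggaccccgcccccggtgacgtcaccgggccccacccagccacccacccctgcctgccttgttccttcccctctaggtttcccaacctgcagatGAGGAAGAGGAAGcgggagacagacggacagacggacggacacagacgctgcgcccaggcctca
The *Csf2ra* window held 2 copies of GAGGAAG on its own strand, overlapping by a single base, and the *Csf1* window held 0 on either strand. The letters occurred on either strand in 4477 of 32851 RefSeq promoters of this length (13.6%), and the motif was chosen after the sequences had been seen.

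On GRCm39, *Csf1r* (ENSMUSG00000024621) lies on chromosome 18 from 61229714 to 61266535 on the plus strand. *Csf1* (ENSMUSG00000014599) lies on chromosome 3 from 107648364 to 107667806 and *Il34* (ENSMUSG00000031750) on chromosome 8 from 111423928 to 111532584, both on the minus strand. *Csf2ra* (ENSMUSG00000059326) lies on chromosome 19 from 61212395 to 61216892 on the minus strand and *Csf2rb* (ENSMUSG00000071713) on chromosome 15 from 78209952 to 78238047 on the plus strand. The gene bodies of *Csf1r* and *Il34* overlap protein-coding genes on the opposite strand (*Hmgxb3*, and *Vac14* with *Mtss2*). *Csf1* and *Csf2ra* are covered over their whole length by annotated long noncoding RNAs of the opposite strand (*Gm40121* and *Gm56644*), whose levels were not analysed here. The libraries were stranded, but the strand setting used in counting is not given in the sources used here, so what part antisense reads had in the values of these 4 genes was not tested. Of the 50-base windows in *Csf2rb* transcripts, 12.4% also occur in another gene, nearly all in its neighbor *Csf2rb2*, so reads of these related genes may have been split between them. No such window of *Csf1*, *Il34* or *Csf2ra* occurs in another gene, and 0.469% of those of *Csf1r* do.

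The values are normalized counts, which the authors made by scaling estimated reads per gene to be comparable between libraries. A choroid library held approximately 21628874 to 28174821 reads and a retina library 20940403 to 30421581, so that 3 reads, taken as the floor of detection, corresponded to between 2.235 and 3.555 normalized counts. *Tgfbr2* itself did not separate the genotypes in whole tissue (choroid – PLX: control 10503 ± 425, *Tgfbr2ΔEC* 10176 ± 1077; retina – PLX: 213 ± 55.4 and 178 ± 73.8; SD, n = 5 each). Retinal pigment epithelium markers were high in all choroids (score 13.1 to 13.9) and low in all retinae (6.53 to 8.99), and neural retina markers were high in all retinae (15.7 to 16.2). Such a score averages the log2(normalized count + 1) values of its markers. The choroids held varying amounts of neural retina transcripts: the score was 9.26 ± 1.30 in control – PLX, 11.8 ± 0.721 in *Tgfbr2ΔEC* – PLX, 9.32 ± 2.17 in control + PLX, where a single choroid (mouse 15) reached 12.7, and 9.55 ± 0.728 in *Tgfbr2ΔEC* + PLX. Choroid values with this score in the fit or without mouse 15 are therefore given beside the diet and genotype effects.

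Per kilobase of exon, which allows genes to be set side by side, *Csf1r* was the highest of the 5 transcripts in control – PLX choroids, with 1143 normalized counts per kb (lowest to highest mouse 1109 to 1209). *Csf2ra* followed with 515 (408 to 591) and *Csf1* with 488 (397 to 567), and the ranges of this pair overlapped. The levels of *Csf2rb* (162, range 92.7 to 242) and *Il34* (159, range 102 to 230.01) lay below them and overlapped each other.

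In control – PLX retinae the order was different. *Csf2ra* led with 252 normalized counts per kb (194 to 342), followed by *Csf1r* with 78.3 (56.6 to 118), and their ranges did not overlap. *Il34* (38.5, range 22.5 to 65.1) and *Csf1* (34.2, range 23.2 to 43.3) had lower means and overlapped each other, and the highest *Il34* value lay above the lowest *Csf1r* value. *Csf2rb* had the lowest mean, 10.6 (0.802 to 24.2), and its range reached those of both ligands.

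With PLX5622, *Csf1r* stayed the highest of the 5 in control choroids but its range, 432 to 677 normalized counts per kb, now overlapped that of *Csf1*, 399 to 569. In control + PLX retinae *Csf1r* fell below both of its ligands: it reached 2.27 to 16.3 normalized counts per kb, against 21.8 to 29.8 for *Csf1* and 21.7 to 36.3 for *Il34*. *Csf2ra*, at 214 to 291, lay above the other members in these retinae.

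**Figure D1:**
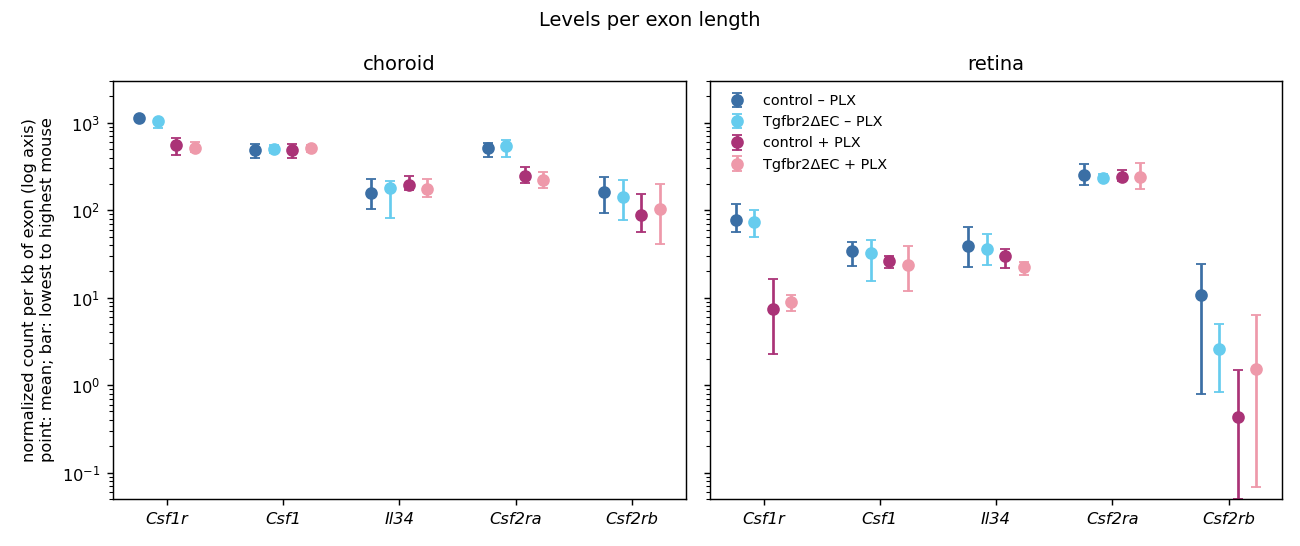
Normalized counts per kb of exon on a log axis for the 5 genes in choroid (left) and retina (right); points are means of 5 mice, bars run from the lowest to the highest mouse, and colors give the 4 groups. The axis ends at 0.05, so the *Csf2rb* bar of control + PLX retinae that reaches it stands for a lowest value of 0; in retina with PLX5622 *Csf2ra* lay above the other genes, and *Csf1r* lay below *Csf1* and *Il34* in control mice.

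All 5 transcripts were higher in choroid than in retina of control – PLX mice, in 5 of 5 mice each. *Csf1r* was at 8411 ± 293 normalized counts in choroid and 576 ± 191 in retina (SD, n = 5), and *Csf1* at 2866 ± 398 and 201 ± 45.0. Both the receptor and its widely made ligand thus differed by similar factors, 15.2-fold for *Csf1r* (log2 difference 3.92, SE 0.27, adjusted p = 2.00e-15, limma) and 14.4-fold for *Csf1* (3.85, adjusted p = 1.37e-17, limma). *Csf2rb* differed by 23.8-fold (4.57 on the log2(normalized count + 1) scale, adjusted p = 1.04e-06, limma). Its log2 difference ran from 3.93 to 5.23 with each mouse left out, so the size of this factor is uncertain. For *Il34* the factor was 4.29 (adjusted p = 4.71e-09, limma), and for *Csf2ra* it was 2.06 (adjusted p = 1.98e-07, limma). Of 24317 genes, 34.1% were called higher in choroid, so a call in this direction is common. An exact sign-flip test over 5 mice cannot go below p = 0.0625, the value each gene reached.

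Among the other growth factor receptors, 8 of 9 tested were higher in choroid and 1 was lower. *Csf2rb2*, the IL-3 receptor chain related to *Csf2rb*, differed by 4.52 on the log2 scale and *Csf3r*, the G-CSF receptor of neutrophils and monocytes, by 2.62. *Ptprz1*, a receptor-type phosphatase that also binds IL-34 and is found on glia, was the lower one (-2.85). Of 3 other ligands tested, *Kitl* (3.03), the ligand of KIT, and *Flt3l* (1.07), the ligand of FLT3, were higher in choroid. The ligands of the GM-CSF receptor family were hardly detected: *Csf2*, which encodes GM-CSF, reached at most 2.47 normalized counts in a – PLX choroid and was at 0 in all – PLX retinae, and *Il3* reached at most 0.893 in a – PLX choroid.

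In choroid the PLX5622 diet lowered *Csf1r* and *Csf2ra*, and no change of the CSF1R ligands was detected. *Csf1r* was at 8229, 8325, 8435, 8163 and 8902 normalized counts in the 5 control – PLX choroids and at 4235, 3177, 3887, 4986 and 4199 in the 5 control + PLX choroids. Every PLX-treated control choroid lay below every untreated one. The fold difference was 2.07 (log2 difference -1.05, SE 0.10, 95% confidence interval -1.26 to -0.84, adjusted p = 4.32e-07, limma). In *Tgfbr2ΔEC* choroids *Csf1r* was at 6489.9, 7918, 8160.4, 8148 and 7577 without and at 3881, 3594, 3399, 3821 and 4462 with PLX5622. These groups did not overlap either, and the difference was 2.00-fold (-1.0, 95% confidence interval -1.21 to -0.79, adjusted p = 8.18e-07, limma). The difference between the genotypes in this diet effect was 0.05 (95% confidence interval -0.24 to 0.35, adjusted p = 0.993, limma).

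*Csf2ra* behaved like *Csf1r* in choroid. It was at 1611, 1192, 1729, 1388 and 1609.7 normalized counts in control – PLX and at 710.4, 904, 725, 596 and 664 in control + PLX choroids. All PLX-treated choroids were lower than all untreated ones, by 2.09-fold (log2 difference -1.07, SE 0.14, 95% confidence interval -1.36 to -0.77, adjusted p = 3.51e-05, limma). In *Tgfbr2ΔEC* choroids the values were 1639.8, 1619.7, 1610.3, 1854 and 1174 without and 707, 809, 531, 559 and 648 with PLX5622. Again the groups did not overlap, and the difference was 2.43-fold (-1.28, 95% confidence interval -1.57 to -0.98, adjusted p = 3.16e-06, limma). Thus 2 of the 5 members fell in each genotype, where 3.15% of 23619 genes were called lower in control and 3.50% in *Tgfbr2ΔEC* choroids.

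*Csf2rb* varied widely between choroids of the same group. It was at 674, 964, 1761, 1740.4 and 769 normalized counts in control – PLX and at 405, 419, 1123, 408 and 814 in control + PLX choroids. The groups overlapped, and the log2 difference of -0.92 (95% confidence interval -1.76 to -0.07) did not pass (adjusted p = 0.307, limma; exact permutation p = 0.0714). In *Tgfbr2ΔEC* choroids, with 562 to 1621 (median 987) without and 297 to 1436 (median 666) with PLX5622, the difference was -0.58 (adjusted p = 0.568, limma). Its relative *Csf2rb2* varied less, at 659 ± 59.1 in control – PLX and 386 ± 77.8 in control + PLX choroids (SD, n = 5), and it fell by 0.79 on the log2 scale (adjusted p = 0.00219, limma) and by 0.61 in *Tgfbr2ΔEC* choroids (adjusted p = 0.0230, limma). The sum of *Csf2rb* and *Csf2rb2*, chosen after seeing the data because they share sequence, differed by -0.84 in control (exact permutation p = 0.0159) and by -0.56 in *Tgfbr2ΔEC* choroids (exact permutation p = 0.143).

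The ligands of CSF1R did not pass the test in choroid. *Csf1* was at 2335, 3156, 2865, 3333 and 2641 normalized counts in control – PLX and at 2848, 3346, 2343, 3152 and 2591 in control + PLX choroids. These values overlap throughout, and the log2 difference of -0.01 had a 95% confidence interval from -0.23 to 0.22 (adjusted p = 0.992, limma). In *Tgfbr2ΔEC* choroids *Csf1* was at 2920.4 ± 269.5 without and 3039 ± 248 with PLX5622 (SD, n = 5), a difference of 0.06 (95% confidence interval -0.16 to 0.28). *Il34* ranged more widely within groups, from 388 to 876 (median 649) in control – PLX and from 657 to 927 (median 691) in control + PLX choroids. Its difference was 0.35 in control (95% confidence interval -0.16 to 0.86, adjusted p = 0.592, limma) and 0.05 in *Tgfbr2ΔEC* choroids (-0.45 to 0.56).

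**Figure D2:**
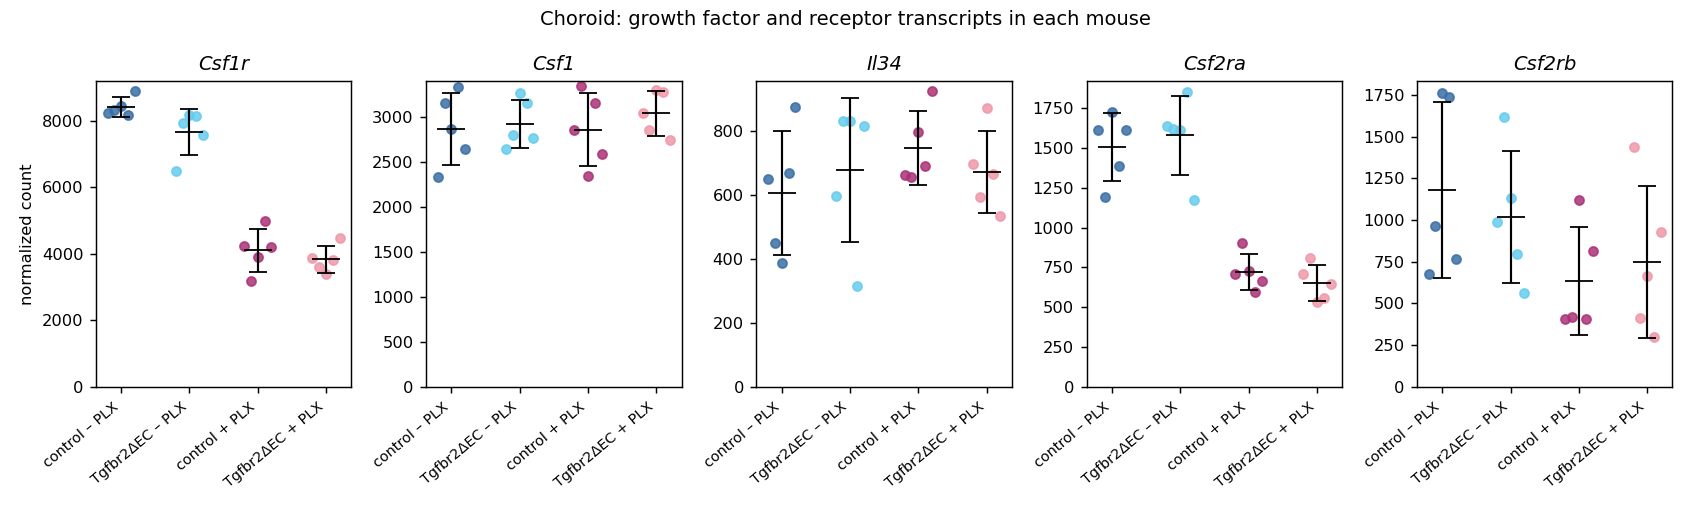
Normalized counts of the 5 genes in each choroid; points are mice, black bars are the mean ± SD of 5 mice, and the x axis gives the 4 groups. All + PLX points of *Csf1r* and *Csf2ra* lie below all – PLX points, those of *Csf1* and *Il34* overlap between diets, and *Csf2rb* spreads from 297 to 1761.

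The diet effects on *Csf1r* and *Csf2ra* in choroid were also seen when the unequal neural retina transcripts were taken into account. Without mouse 15, *Csf1r* differed by -1.06 and *Csf2ra* by -1.04 between the diets in control mice, and *Csf1* (0.03), *Il34* (0.27) and *Csf2rb* (-1.04) did not pass (adjusted p = 0.968, 0.765 and 0.296, limma). With the neural retina score in the fit, *Csf1r* differed by -1.02 (adjusted p = 1.87e-05, limma) and *Csf2ra* by -1.32 (adjusted p = 4.86e-05, limma) in *Tgfbr2ΔEC* choroids. *Csf1* (0.07), *Il34* (0.26, against 0.05 without the score) and *Csf2rb* (-0.65) did not pass in that fit (adjusted p = 0.936, 0.875 and 0.765, limma).

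In retina the diet effect on *Csf1r* was larger, while *Csf2ra* showed none that could be detected. *Csf1r* was at 672, 452, 416, 474 and 867 normalized counts in the control – PLX retinae and at 49.3, 61.2, 16.7, 29.6 and 119.7 in the control + PLX retinae. The groups were far apart, with a 12.1-fold difference (log2 difference -3.59, SE 0.36, 95% confidence interval -4.34 to -2.85, adjusted p = 2.25e-06, limma). In *Tgfbr2ΔEC* retinae the values were 747, 625, 456, 486 and 368 without and 78.1, 78.5, 51.6, 69.0 and 51.9 with PLX5622. Here the difference was 7.94-fold (-2.99, 95% confidence interval -3.73 to -2.24, adjusted p = 3.41e-05, limma), and the difference of the diet effect between the genotypes was 0.60 (95% confidence interval -0.45 to 1.66, adjusted p = 1.00, limma). All PLX-treated retinae still held *Csf1r* above the floor.

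*Csf2ra* was at 999, 567, 753, 638 and 728 normalized counts in control – PLX and at 851, 730.0, 629, 625 and 636 in control + PLX retinae. The groups overlapped over nearly their whole range, and the log2 difference was -0.07, with a 95% confidence interval from -0.40 to 0.26. In *Tgfbr2ΔEC* retinae it was at 680.3 ± 52.1 without and 707 ± 185 with PLX5622 (SD, n = 5), a difference of 0.02 (-0.31 to 0.35). A fall as large as that in choroid lies outside both intervals.

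*Csf2rb* was low in retina and close to the floor with PLX5622. It was at 176, 5.84, 17.8, 92.0 and 94.6 normalized counts in control – PLX and at 0.608, 1.70, 10.8, 2.55 and 0 in control + PLX retinae. The ranges overlapped through the retina at 10.8, and the other 4 PLX-treated retinae were at or under about 3 reads. The log2(normalized count + 1) difference of -4.02 passed the test (SE 0.91, 95% confidence interval -5.91 to -2.13, adjusted p = 0.0369, limma; exact permutation p = 0.0159), but its size depends on the number added before taking the log. With 5 added it was -2.85 and no longer passed (adjusted p = 0.0560, limma), and leaving out mouse 1, the highest, raised the adjusted p to 0.151 (limma). In *Tgfbr2ΔEC* retinae *Csf2rb* was at 36.8, 20.7, 18.9, 11.998 and 6.10 without and at 1.59, 4.48, 46.5, 3.27 and 0.4998 with PLX5622. The difference of -1.69 did not pass (95% confidence interval -3.58 to 0.20, exact permutation p = 0.111). It ran from -2.48 to -1.23 with each mouse left out and from -1.89 to -1.01 under the other settings. The sum with *Csf2rb2* differed by -2.10 in control (exact permutation p = 0.0476) and by -1.14 in *Tgfbr2ΔEC* retinae (exact permutation p = 0.222).

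In control retinae 2 of the 5 members fell with the diet, *Csf1r* and *Csf2rb*, and in *Tgfbr2ΔEC* retinae 1, *Csf1r*. Over 23243 genes, 0.727% were called lower in control and 0.512% in *Tgfbr2ΔEC* retinae.

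Neither ligand passed the test in retina. *Csf1* was at 255, 191, 231, 136 and 194 normalized counts in control – PLX and at 167, 128, 175, 141 and 164 in control + PLX retinae. The upper values were found without PLX5622, but the groups overlapped, and the log2 difference of -0.35 had a 95% confidence interval from -0.96 to 0.25. In *Tgfbr2ΔEC* retinae *Csf1* was at 189.9 ± 67.8 without and 138 ± 64.8 with PLX5622 (SD, n = 5), a difference of -0.50 (-1.10 to 0.11). *Il34* was at 189, 112, 248, 98.3 and 85.7 in control – PLX and at 138, 125, 131, 98.8 and 82.7 in control + PLX retinae, a difference of -0.25 (-0.80 to 0.29). In *Tgfbr2ΔEC* retinae it was at 125, 126, 203, 90.5 and 143 without and at 91.6, 86.3, 69.5, 80.8 and 97.1 with PLX5622. A single untreated retina, at 90.5, lay within the range of the treated ones, and the difference of -0.65 (-1.19 to -0.10) had an exact permutation p of 0.0238 but failed the correction over all genes (adjusted p = 1.00, limma).

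**Figure D3:**
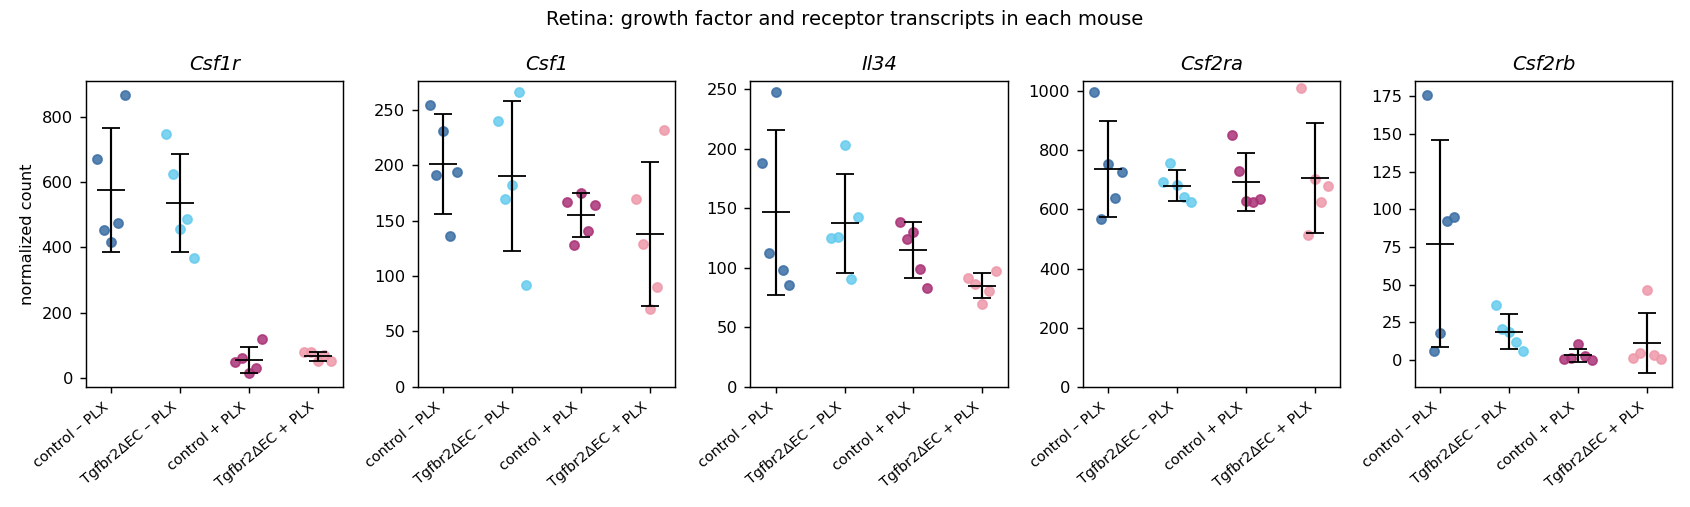
Normalized counts of the 5 genes in each retina; points are mice, black bars are the mean ± SD of 5 mice, and the x axis gives the 4 groups. *Csf1r* falls from 368 to 867 without to 16.7 to 119.7 with PLX5622, *Csf2ra* lies between 512 and 1009.7 in all groups, and *Csf2rb* is at 10.8 or less in all control + PLX retinae.

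The diet effect differed between the tissues for *Csf1r* and *Csf2ra*, in opposite directions. The fall of *Csf1r* was larger in retina: averaged over the genotypes, the diet effect in choroid minus that in retina was 2.26 on the log2 scale (95% confidence interval 1.71 to 2.82, adjusted p = 5.27e-07, limma). The fall of *Csf2ra* was larger in choroid, with a difference of -1.15 (-1.46 to -0.84, adjusted p = 4.16e-06, limma). Thus 2 of the 5 members were called, where 1.37% of 24317 genes were called in either direction. Exact permutation of the diet within each genotype gave p = 3.15e-05 for both genes, the smallest it can give. *Csf2rb* (2.11, adjusted p = 0.209), *Il34* (0.65, adjusted p = 0.317) and *Csf1* (0.45, adjusted p = 0.50) did not pass in limma, and their exact permutation p was 0.0164, 0.0267 and 0.0957. With PLX5622 the *Csf2ra* levels of the tissues came together: 719.8 ± 115 normalized counts in control choroids and 694 ± 97.9 in control retinae (SD, n = 5). Of the 10 mice fed PLX5622, 4 had more *Csf2ra* in choroid than in retina, against 10 of 10 mice without PLX5622.

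**Figure D4:**
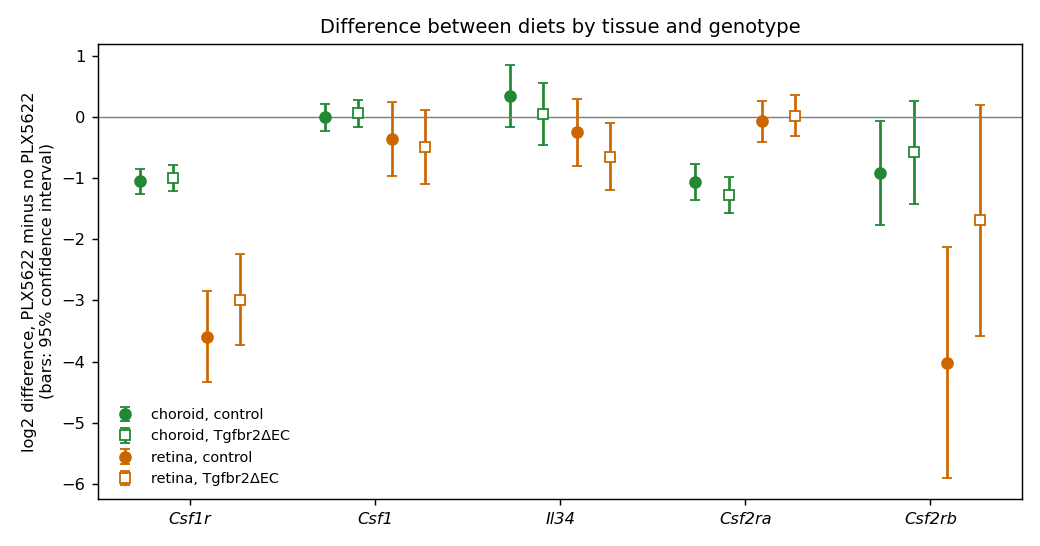
Log2 difference between the diets (PLX5622 minus no PLX5622) for each gene; points are limma estimates, bars are 95% confidence intervals, green marks choroid, orange retina, filled circles control and open squares *Tgfbr2ΔEC* mice. *Csf1r* lies near -1 in choroid and between -3.59 and -2.99 in retina, and *Csf2ra* lies between -1.28 and -1.07 in choroid and at about 0 in retina.

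Markers of MP fell with the diet in both tissues, as *Csf1r* did, whereas *Csf2ra* fell in choroid and did not pass the test in retina. Of 19 MP markers, 18 fell in choroid of either genotype and 17 in retina of either genotype. Over all genes, 3.15% and 3.50% were called lower in control and *Tgfbr2ΔEC* choroids, and 0.727% and 0.512% in the retinae. The summed level of the list was between 45416 and 55847 normalized counts in – PLX choroids and between 9796 and 16676 in + PLX choroids. In retinae the sums were 2076 to 5202 without and 373 to 526 with PLX5622, and 3 of the markers were at 0 in all retinae of each PLX-treated group (*Adgre1* and *Cd163* in both, *Mrc1* in control and *Siglech* in *Tgfbr2ΔEC* mice). The MP score differed by -2.55 in control and -2.57 in *Tgfbr2ΔEC* choroids, and by -5.01 and -4.59 in retinae (exact permutation p = 0.00794 each, the smallest that 5 against 5 mice allow). As a description chosen after seeing the data, *Csf1r* minus the score was higher with PLX5622 by 1.502 and 1.57 in choroids and by 1.42 and 1.599 in retinae. The same difference is higher for any gene that falls less than the score, ligands that did not pass the test included (in control choroids *Csf1* by 2.55 and *Il34* by 2.90), and the score averages markers that fell by different amounts. In bulk tissue, fewer cells of a type and less RNA per cell cannot be told apart.

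Lists of other cell types moved with the diet to different degrees. The monocyte score fell in choroid, by 1.57 in control and by 1.15 in *Tgfbr2ΔEC* mice (exact permutation p = 0.00794 each), and in control retinae by 3.03 (exact permutation p = 0.00794). In *Tgfbr2ΔEC* retinae it differed by -1.50, with overlapping values (exact permutation p = 0.0556). Of the 5 monocyte markers, 1 was called lower in control and 0 in *Tgfbr2ΔEC* retinae. In control + PLX retinae the 5 markers summed to between 0 and 7.20 normalized counts (median 1.90). The size of the fall there thus depends on the number added before taking the log. The dendritic cell score fell in choroid by 1.12 and by 1.00 (exact permutation p = 0.00794 each), but its markers did not move alike. In control choroids 2 of 5 were called lower, with log2 differences from -3.40 to 0.38. In *Tgfbr2ΔEC* choroids 1 of 5 was called lower, with differences from -2.89 to 0.17. The neutrophil score differed by -0.08 and -0.01 in choroid (exact permutation p = 0.706 and 0.968). The endothelial score rose in choroid by 0.24 in control (exact permutation p = 0.00794) and by 0.23 in *Tgfbr2ΔEC* mice (exact permutation p = 0.0159), and the pericyte and smooth muscle score by 0.37 (exact permutation p = 0.0317) and by 0.26 (exact permutation p = 0.00794). In *Tgfbr2ΔEC* choroids the neural retina score fell by 2.29 and the ganglion and amacrine neuron score by 1.38 (exact permutation p = 0.00794 each), whereas in control choroids they differed by 0.06 and 0.44 (exact permutation p = 0.984 and 0.556). In *Tgfbr2ΔEC* retinae the pigment epithelium score differed by 0.49 (exact permutation p = 0.0238) and the Schwann cell score by -0.45 (exact permutation p = 0.0317). Of their markers, 0 of 7 and 0 of 5 were called there. The Schwann cell markers ran from -2.64 to 0.30 with a median of 0.04. The p-values of the scores were not corrected for the number of scores. What part these cells had in the receptor levels was not tested.

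**Figure D5:**
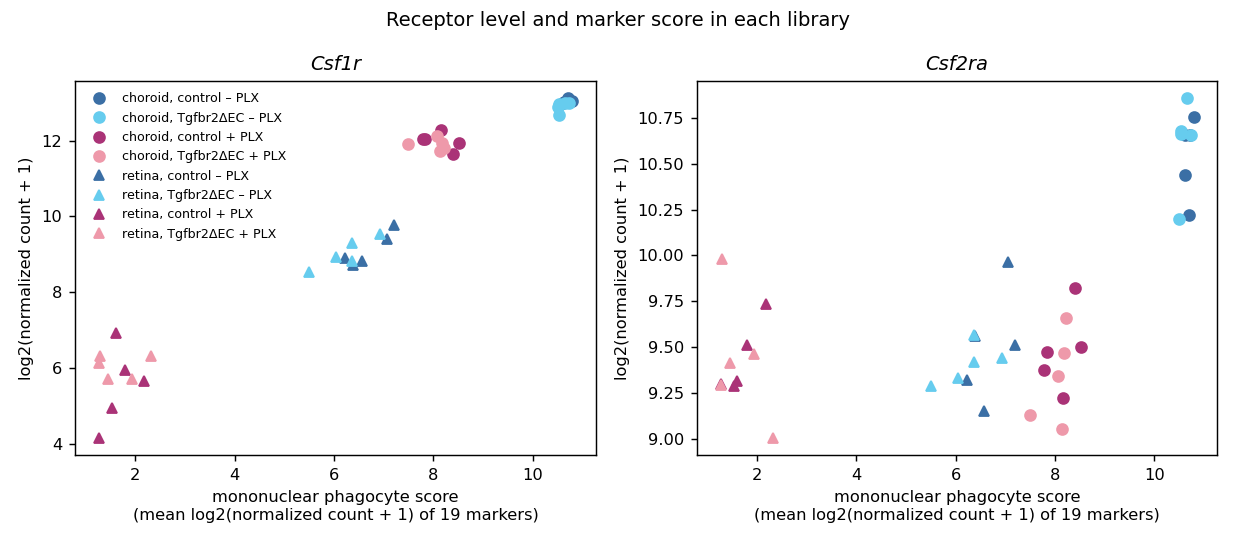
Log2(normalized count + 1) of *Csf1r* (left) and *Csf2ra* (right) against the MP score of the same library; circles are choroids, triangles retinae, and colors give the 4 groups. *Csf1r* falls together with the score from the – PLX to the + PLX libraries of each tissue, whereas *Csf2ra* in retina overlaps between libraries with scores up to 2.32 and those from 5.51.

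None of the 5 transcripts passed the threshold between the genotypes in limma. In – PLX choroids *Csf1r* was 0.14 lower on the log2 scale in *Tgfbr2ΔEC* mice (95% confidence interval -0.35 to 0.07, adjusted p = 0.771, limma). The values did not overlap, from 8163 to 8902 in control against 6489.9 to 8160.4 in *Tgfbr2ΔEC* mice, but the nearest values were almost equal (exact permutation p = 0.00794). The neural retina score was 2.58 higher in the same *Tgfbr2ΔEC* choroids (exact permutation p = 0.00794), and with it in the fit the *Csf1r* difference was -0.12. *Csf1* (0.03), *Il34* (0.13), *Csf2ra* (0.07) and *Csf2rb* (-0.18) did not pass there, and with the score in the fit they were 0.02, -0.09, 0.11 and -0.10, so that the sign of *Il34* turned (adjusted p = 1.00 each, limma). Of 23619 genes, 0.00423% (a single gene) passed in – PLX choroids (2184 at an unadjusted p under 0.05, limma). This count was 303 with only the compared groups in the fit and 411 without mouse 15. In + PLX choroids 0.00423% passed (889 at an unadjusted p under 0.05, limma), and the 5 members differed by -0.16 to 0.16. Without mouse 15 they ran from -0.17 for *Csf2ra* to 0.28 for *Csf2rb*, and with the score in the fit from -0.18 for *Il34* to 0.17 for *Csf2rb*.

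In retina the genotype differences without PLX5622 were between -1.41 for *Csf2rb* and -0.02 for *Il34*, and 0.00% of 23243 genes were called (758 at an unadjusted p under 0.05 in limma). With PLX5622 *Csf2rb* differed by 0.91 (95% confidence interval -0.98 to 2.81, adjusted p = 1.00, limma), opposite in sign to its value without the diet, and neither value passed. The value of 0.91 ran from 0.12 to 1.43 with each mouse left out, and a single *Tgfbr2ΔEC* + PLX retina (mouse 18, at 46.5) lay far above the others. *Csf1r* differed by 0.52 and *Il34* by -0.41 (for *Il34*, exact permutation p = 0.0476; adjusted p = 1.00, limma), and 0.00% were called (629 at an unadjusted p under 0.05). *Csf2rb* in – PLX retinae was at 77.2 ± 68.7 in control against 18.9 ± 11.6 normalized counts in *Tgfbr2ΔEC* mice (SD, n = 5), with overlapping values and an exact permutation p of 0.190. The difference of the diet effect between genotypes passed for none of the 5 members, and 0.00% of the genes of either tissue were called (1552 in choroid and 567 in retina at an unadjusted p under 0.05, limma). In choroid the members' differences ran from -0.29 for *Il34* to 0.34 for *Csf2rb*, from -0.24 for *Csf2ra* to 0.47 for *Csf2rb* without mouse 15, and from -0.25 for *Csf2ra* to 0.27 for *Csf2rb* with the score in the fit.

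The other genes of the pathway were lists chosen with results of these data known, and they are given as counts. Over all genes, 3.15% were called lower in control and 3.50% in *Tgfbr2ΔEC* choroids, and 0.727% and 0.512% in the retinae. In choroid *Csf3r* fell by 0.76 in control (adjusted p = 0.0310, limma) and by 1.37 in *Tgfbr2ΔEC* mice (adjusted p = 9.73e-05, limma), together with *Csf2rb2*. In *Tgfbr2ΔEC* choroids *Flt3*, a receptor of dendritic cell precursors, also fell (-0.98, adjusted p = 0.0120, limma). Thus 2 and 3 of the 10 other growth factor receptors were lower and 0 were higher, and 0 of the 4 tested ligands passed in either genotype. In retina *Csf3r* fell in control mice by 4.09, from 90.1 ± 67.9 to 3.58 ± 1.83 normalized counts (SD, n = 5; adjusted p = 0.00179, limma), the single receptor of 9 that passed, whereas 0 of 9 passed in *Tgfbr2ΔEC* retinae.

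Transcription factors known to act on the *Csf1r* gene were lower in choroid in 4 of 7 cases in each genotype. Of all genes, 3.15% were called lower in control and 3.50% in *Tgfbr2ΔEC* choroids. The median log2 difference of the 7 factors was -1.08 in control and -1.02 in *Tgfbr2ΔEC* mice against 0.02 and -0.01 over all genes. *Spi1*, which encodes PU.1, differed by -1.92 and -1.91, the lymphoid and myeloid factor *Ikzf1* by -1.75 and -1.54, *Irf8* by -1.24 and -1.11 and *Cebpa*, a factor of granulocyte and monocyte precursors, by -1.08 and -1.02. In retina 2 of 7 passed in each genotype, where 0.727% and 0.512% of all genes were called lower. The 2 were *Ikzf1* (-4.64) and *Cebpa* (-1.47) in control, and *Spi1* (-4.88) and *Ikzf1* (-4.33) in *Tgfbr2ΔEC* mice. *Spi1* in control retinae was at -3.35 and did not pass (adjusted p = 0.0591, limma).

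The list for signalling with these receptors held 32 genes, among them *Trem2*, a separate receptor at the cell surface. Of these, 12 were lower and 0 higher in control choroids, and 11 were lower and 0 higher in *Tgfbr2ΔEC* choroids. Over all genes, 3.15% and 3.50% were called lower in these choroids, and 0.727% and 0.512% in control and *Tgfbr2ΔEC* retinae. Among the largest differences in control choroids were those of the PI3 kinase gene *Pik3cg* (-2.31), the adaptor *Dok2* (-2.31), the exchange factor *Vav1* (-1.83) and the phosphatase *Ptpn6* (-1.79). In *Tgfbr2ΔEC* choroids they were those of *Pik3cg* (-2.34), the microglial receptor *Trem2* (-2.27), *Vav1* (-1.87), the lipid phosphatase *Inpp5d* (-1.85) and *Tyrobp* (-1.78), the adaptor of TREM2. In retina 7 were lower in control and 5 in *Tgfbr2ΔEC* mice, led by *Tyrobp* (-6.34 and -5.90) and *Trem2* (-5.53 and -5.26), and including *Vav1* (-4.64 and -4.37) and *Lyn* (-2.32 and -1.71).

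The transcripts most like each member over the 20 libraries of a tissue were taken by Pearson's r of log2(normalized count + 1), as a description in which the points share groups and library makeup. In choroid *Csf1r* was most like *Nxpe5* (r = 0.967), *Slc9a9* (0.965) and *Cd33* (0.964), and *Csf2ra* most like *Ms4a6c* (0.962), *Cd180* (0.962) and *Pik3cg* (0.962). In retina *Csf1r* was most like *P2ry13* (0.962), *Arhgap30* (0.957) and *Ikzf1* (0.957). *Csf2ra* had no comparable counterpart in retina, where its highest values were 0.834 (*Slc22a5*), 0.818 (*Arfrp1*) and 0.805 (*Kat8*). For *Csf2rb* the most like were *Acer3* (0.784), *Nlrp3* (0.759) and *Cenpt* (0.724) in choroid and *Ptafr* (0.853), *Itgam* (0.821) and *Mrc1* (0.798) in retina. Among the ligands in choroid, *Csf1* was most like *9130221H12Rik* (0.747), *Odad1* (0.71) and *Gm9902* (0.702), and *Il34* most like *Tafa5* (0.738), *Gm45847* (0.738) and *Gm42928* (0.735). In retina *Csf1* was most like *Birc5* (0.813), *Cracr2b* (0.751) and *Parp9* (0.740), and *Il34* most like *AI506816* (0.764), *Atad2* (0.701) and *Ak7* (0.666).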

How the data were processed

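RNA of choroid and retina was sequenced by the authors as stranded, polyadenylated libraries with single reads of 50 cycles. The authors checked the reads with FastQC 0.11.5, ran salmon 1.10.1 (GRCm39, GENCODE vM29) for estimated reads per gene, and used tximport and then DESeq2 1.36.0 for normalization. The deposited values are this signal per gene, referred to as normalized counts. They are not whole numbers (45.8% to 72.1% of low values per library lay within 0.1 of a whole read), so no count test was run, and depth, inferred from the step between low values, is approximate. The floor of 3 reads covers counting error alone. The confidence intervals come from the limma fits and rest on the spread between mice. All 40 columns were matched to samples by title, and 53700 of 54307 identifiers matched the annotation used for symbols and positions; 17202 genes were at 0 in every library.

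Genes whose mean reached 1 were tested on the log2(normalized count + 1) scale by limma 3.58.1 (R 4.3.3), with the variance following a trend on the mean. The 4 groups of a tissue entered 1 fit, and all 40 libraries entered the fit between tissues. Benjamini-Hochberg adjusted p at or under 0.05 was called. Exact two-sided permutation tests compared 5 mice with 5 (252 splits). The authors' covariates, sex and a neuronal percentage from xCell, were not used here; marker scores stood in for them as alternatives. Nothing states more than 1 library per mouse and tissue, so the p-values measure the spread between mice. In 12 comparisons of 5 genes, 60 member results were computed, and comparisons within a tissue share groups. On simulated data for the diet in control choroids, 111 of 200 genes changed 2-fold (55.5%) were recovered and 7 unchanged ones of 23186 tested were called. The noise was drawn independently for each gene, and the changed genes were taken from those with a mean of at least 10. Shared differences in library makeup, as in the neural retina score, were not simulated, so these rates need not hold for the real choroids.

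The 5 members, the pathway lists and the marker lists were chosen with earlier results of these data known. Named besides the members are, for the diet comparisons, up to 5 genes per list and direction with the largest log2 difference among those called, other growth factor ligands and receptors, and the 3 most correlated genes with a mean of at least 10 (17530 in choroid, 17098 in retina). Of the genes this rule selects, 1 is not reported here. The alternatives were pseudocounts of 0.5 and 5, a minimum mean of 10 or none, equal library sums, rescaling by median ratios, robust variance, score covariates, fits of the compared groups alone, and leaving out each mouse. Choroid and retina share mouse numbers 1 to 20, and their deviations from the group means correlated with a median r of 0.126 (-0.158 to 0.289; 14 of 20 highest with the own number), so the fit with the mouse as replicate block is an alternative. The software was Python 3.11.15 with numpy 2.4.6, matplotlib 3.10.9, scipy 1.17.1 and pandas 2.3.3. Promoter sequences are RefSeq entries on GRCm38.p6.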

Additional observations from a re-analysis of the deposited data

Results flagged for a closer look

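Of 40 groups of 5 mice (5 genes, 2 tissues, 4 groups), 2 held a sample far from the others, both for *Csf2rb* in PLX-treated retinae and on the scale of normalized counts; chance flags about 1 in 20 groups. In control + PLX mice the retina of mouse 13 was at 10.8 against 2.55 for the next, a gap of 0.763 of the group's range. In *Tgfbr2ΔEC* + PLX mice the retina of mouse 18 was at 46.5 against 4.48, a gap of 0.914 of the range. The other retinae of these groups were at or close to the floor of 3 reads.

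The diet effect differed between choroid and retina for *Csf1r*, by 2.26 on the log2 scale (adjusted p = 5.27e-07, limma), and for *Csf2ra*, by -1.15 (adjusted p = 4.16e-06, limma). *Csf1r* fell more in retina and *Csf2ra* fell more in choroid. The *Csf1r* difference ran between 2.10 and 2.43 with each mouse left out.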

How the results depend on the processing

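Of 670 member values under other settings, 637 kept their direction and their side of the threshold, as did 1157 of 1200 with a mouse left out. The diet effects on *Csf1r* in both tissues and on *Csf2ra* in choroid passed under every alternative run; with a mouse left out *Csf1r* ran from -1.13 to -0.96 and from -1.06 to -0.96 in control and *Tgfbr2ΔEC* choroids and from -3.94 to -3.25 and -3.11 to -2.86 in retinae, and *Csf2ra* from -1.15 to -1.001 and -1.38 to -1.21 in choroids. With the mouse as replicate block, *Csf1r* and *Csf2ra* had the same differences between tissues (adjusted p = 3.57e-05 and 2.93e-05, limma), and this block changed no call.

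The *Csf2rb* call in control retinae was lost with every gene above 0 (adjusted p = 0.0632), a minimum mean of 10 (0.0525), only the groups compared (0.0890), a pseudocount of 5 (-2.85, 0.0560), the neural retina score (-3.25, 0.112), both scores (-3.19, 0.128), and without mouse 1, 4, 5, 11, 12, 14 or 15 (difference over all mice left out in turn -4.70 to -3.53, adjusted p up to 0.151, limma); the cause was not tested. The sign-flip test of 5 mice could not pass for any tissue difference.

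All reversed values were of differences that had not been called. With the sex score in the fit they were *Il34* in the *Tgfbr2ΔEC* choroid diet effect (-0.027), and in retina the genotype effect of *Il34* – PLX (0.040) and of *Csf2ra* + PLX (0.084). With the neural retina score they were *Il34* in the genotype effect in – PLX choroids (-0.092), and in retina the control diet effect of *Csf2ra* (0.010) and the genotype effects of *Csf1* (0.022) and *Il34* (0.065) – PLX and of *Csf2ra* + PLX (0.032). With both scores they were, in choroid, *Csf1r* in the difference of the diet effect between genotypes (-0.027) and *Il34* in the – PLX genotype effect (-0.051), and in retina the genotype effects of *Csf1* (0.068), *Il34* (0.090) and *Csf2ra* (0.0090) – PLX and of *Csf2ra* + PLX (0.094). The last, at -9.6e-05, was 0.0030 with equal library sums, 0.0054 with median ratios and 4.1e-05 with a pseudocount of 5.

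With each mouse left out, the sign of 36 uncalled values turned. In choroid the ranges were -0.077 to 0.063 (*Csf1*) for the control diet effect, -0.20 to 0.15 (*Il34*) for the *Tgfbr2ΔEC* diet effect, and -0.036 to 0.13 (*Csf1r*) and -0.0042 to 0.14 (*Csf1*) for its difference between genotypes. For the genotype effect they were -0.037 to 0.091 (*Csf1*), -0.010 to 0.39 (*Il34*), -0.016 to 0.17 (*Csf2ra*) and -0.37 to 0.0096 (*Csf2rb*) – PLX, and -0.13 to 0.44 (*Csf2rb*) + PLX. In retina they were -0.16 to 0.046 (*Csf2ra*, control) and -0.12 to 0.13 (*Csf2ra*, *Tgfbr2ΔEC*) for the diet effect, and -0.38 to 0.065 (*Csf1*) and -0.046 to 0.20 (*Csf2ra*) for its difference between genotypes. For the genotype effect they were -0.22 to 0.072 (*Csf1r*), -0.28 to 0.097 (*Csf1*), -0.18 to 0.20 (*Il34*) and -0.18 to 0.024 (*Csf2ra*) – PLX, and -0.14 to 0.11 (*Csf2ra*) + PLX.

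Counts of called genes stayed within 1.5 times in 112 of 124 cases. The exceptions were 572 instead of 885 for the control diet effect in choroid with only the groups compared, 467 (both scores) and 538 (neural retina score) instead of 958 for the *Tgfbr2ΔEC* diet effect in choroid, and 104 instead of 171 for the control diet effect in retina with a minimum mean of 10, where fewer genes were tested. The single gene of the – PLX genotype effect in choroid became 0 with a minimum mean of 10 and 303 with only the groups compared. The single gene + PLX became 0 with a minimum mean of 10, either or both scores, only the groups compared or a pseudocount of 5. With a mouse left out the – PLX count ran from 1 to 411 (411 without mouse 15, the choroid with the highest neural retina score of its group), the + PLX count from 0 to 1, the + PLX genotype count in retina from 0 to 1, and the count of diet differences between tissues from 278 to 620 (620 without mouse 15). For *Csf2rb* in retina with PLX5622, where several values were at or under the floor of 3 reads, differences below that floor were not detectable at this depth.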
